A study of Rattus norvegicus with 6 samples.

Results

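The genes described here carry out glucuronidation and sulfation, the main conjugation reactions that make drugs, steroids and bilirubin water-soluble for excretion. They were chosen by name from the UDP-glucuronosyltransferases (UGTs), a phenol sulfotransferase and the enzymes that make the cofactors, with their response to treatment already known. Of the 9 listed names, 8 matched a gene through the accession of a probe: Ugt1a1, Ugt1a2, Ugt1a6, Ugt2b1, Ugt2b35, Ugdh, Sult1a1 and Papss2. They were measured by 15 of the 61537 non-control probes of the array, which named 15645 genes in all. The ninth name, Ugt2b17, is the symbol of 0 genes in the RefSeq table and an older synonym of 2, Ugt2b1 and Ugt2b15. It therefore has no value of its own, and Ugt2b15 is given below among the other UGT genes. All 8 genes and 15 probes passed the filter on dim signals, Ugt2b1 only through its treated arrays.

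Renal cortex came from 6 male Sprague-Dawley (Crl:CD(SD)) rats, 5 weeks old at purchase. The vehicle group (n = 3) received corn oil for 4 weeks. The treated group (n = 3) received sulfone bis(p-chlorophenyl), a diaryl sulfone with a chlorine on each ring, at a daily dose of 250 mg/kg for 4 weeks. Each animal was read on 1 single-colour Agilent array. A level is given as the log2 signal minus the array's 75th percentile, so 0 is the signal of a probe at that percentile, and levels of different probes are not compared with each other.

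UGTs sit in the endoplasmic reticulum and transfer glucuronic acid from UDP-glucuronate to a substrate. Ugdh makes UDP-glucuronate by oxidising UDP-glucose. Sulfotransferases work in the cytosol with the sulfate donor PAPS, which Papss2 makes from ATP and sulfate. Proximal tubule cells both conjugate such substrates and secrete the products into urine, and in liver many of these genes respond to the xenobiotic receptors CAR, PXR and AhR and to the antioxidant regulator NRF2.

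The share of probes detected, meaning well above background by the scanner's flag, was 66.1% to 68.2% per array. All 12 proximal tubule markers listed were detected in every animal, and their median log2 difference between groups was 0.02. Single markers went both ways, from -0.48 (Gatm) to 0.46 (Kap). Groups lay apart for 1 with treated higher (Slc5a12, 0.43) and for 1 with treated lower (Lrp2, -0.325), against 13.9% and 16.8% of all tested genes. Arrays were divided unevenly over slides, which is also the division by scan: slide 1 held vehicle 1, 2 and 3 and treated 1, and slide 2 held treated 2 and 3. A difference within slide 1 is therefore treated 1 against the vehicle mean, which is also the estimate with slide as a block. Liver transcripts differed between arrays of the same group. In vehicle animals 1 to 3 the albumin gene (Alb) stood at log2 levels of 3.49, 2.43 and -0.28, and in treated animals 1 to 3 at 1.26, 2.12 and 3.92.

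All 8 members had a higher mean in treated than in vehicle cortex. Ugt2b1 stood apart, with a treated mean 10.01-fold above the detection floor of the vehicle arrays. The other 7 differed by 0.44 to 1.07 on the log2 scale, with Sult1a1 at the top of that range and Ugdh at the bottom. For 7 of the 8, every treated array lay above every vehicle array. Only Ugt2b35 overlapped. Among all 12118 tested genes, the groups lay apart with treated higher for 13.9% and with treated lower for 16.8%. The members were picked with this contrast in view, so their count is a description, and the differences below carry a standard error (SE) from the limma fit over all 40643 tested probes but no test. In that fit 1 probe was called higher (0.00246%) and 2 lower (0.00492%) at a limma adjusted p under 0.05, and no member was among them. They were Dhcr7, of cholesterol synthesis, and the potassium channel gene Kcna4 and Nabp1, named after their values were seen. Unadjusted limma p-values under 0.05 were found for 3400 probes in the higher direction (8.37%) and for 4977 in the lower (12.2%). 

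**Figure D1:**
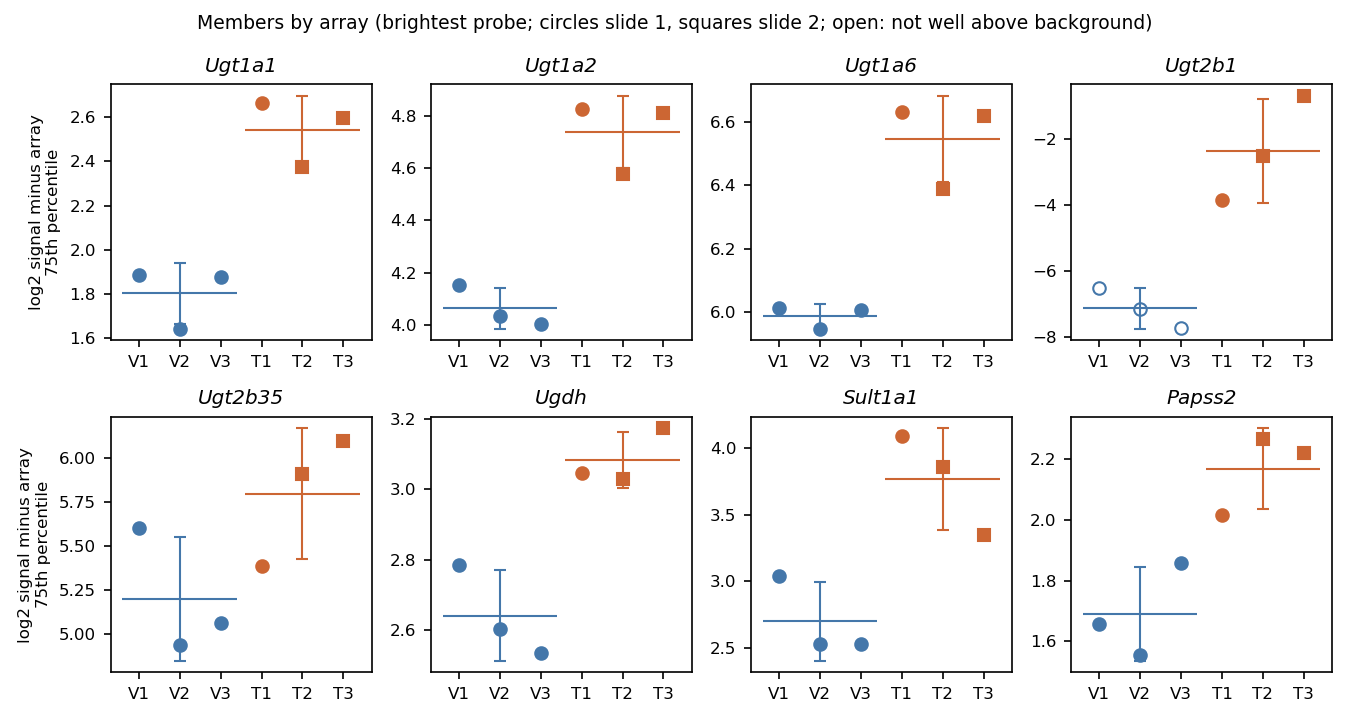
Log2 signal of the brightest probe of each of the 8 members (y axis, minus the array's 75th percentile) on each array (x axis, V vehicle, T treated). Lines are group means, bars are SD (n = 3), circles are slide 1, squares slide 2, and open symbols were not well above background. Treated arrays lie above all vehicle arrays in every panel except Ugt2b35, where treated 1 (5.38) is below vehicle 1 (5.60).

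The UGT1A genes form a single locus in which separate first exons, each with its own start, are spliced to shared later exons. In the RefSeq table of assembly GRCr8, 8 UGT1A genes share the same end on chromosome 9, at position 96256264. The 3 members begin at 96195018 (Ugt1a6), 96239019 (Ugt1a2) and 96249143 (Ugt1a1). Their 250 upstream bases, which are separate sequences, are shown because all 3 genes were higher in every treated array. Capitals mark matches to GTTAAT, the half-site of the tubule and liver factor HNF1 (or ATTAAC, its reverse complement), to GCGTG, the core bound by AhR, and to AGTTCA (or TGAACT), a nuclear receptor half-site. The regions are chr9:96248893-96249142, chr9:96238769-96239018 and chr9:96194768-96195017, all on the plus strand.
Ugt1a1: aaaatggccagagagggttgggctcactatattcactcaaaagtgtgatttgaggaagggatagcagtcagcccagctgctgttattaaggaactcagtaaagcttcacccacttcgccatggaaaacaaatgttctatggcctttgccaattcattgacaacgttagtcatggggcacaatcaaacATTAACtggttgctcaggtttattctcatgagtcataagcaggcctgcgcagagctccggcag
Ugt1a2: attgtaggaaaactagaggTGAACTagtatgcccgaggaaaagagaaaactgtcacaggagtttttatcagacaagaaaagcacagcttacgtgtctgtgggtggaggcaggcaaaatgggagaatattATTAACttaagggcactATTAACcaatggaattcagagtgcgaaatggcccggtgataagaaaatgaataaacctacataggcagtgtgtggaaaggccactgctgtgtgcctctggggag
Ugt1a6: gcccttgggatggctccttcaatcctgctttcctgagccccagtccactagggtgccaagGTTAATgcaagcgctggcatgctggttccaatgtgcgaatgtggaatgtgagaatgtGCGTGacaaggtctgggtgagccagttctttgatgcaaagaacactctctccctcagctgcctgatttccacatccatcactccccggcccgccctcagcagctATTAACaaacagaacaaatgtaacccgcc

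GTTAAT was found in all 3 of these sequences and in 6.45% of the 33469 upstream sequences of the same length, searched on both strands. GCGTG was found in Ugt1a6 only among the 3, at 133 to 129 bases before the start, and in 25.9% of all. AGTTCA was found in Ugt1a2, and in 12.2% of all. The antioxidant response core TGACNNNGC (10.1% of all), the half-site AGGTCA (14.1%) and TATAAA (12.9%) were not in these 3 windows. The window of Ugt1a9, a gene of this locus with a lower treated mean, was not examined on its own. These are letter matches, not measured binding, and their part in the differences was not tested.

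Ugt1a1, the enzyme that conjugates bilirubin, read 1.89, 1.64 and 1.88 in vehicle animals and 2.66, 2.37 and 2.59 in treated animals. The lowest treated array was 0.49 above the highest vehicle array. The difference was 0.74 (SE 0.12), or 1.67-fold, and treated 1 alone exceeded the vehicle mean by 0.86. The sample-to-sample spread was thus small beside the group difference, at an SD of 0.14 in vehicle and 0.15 in treated cortex.

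Ugt1a6, which conjugates small planar phenols, gave nearly the same picture on a more even baseline. Its brightest probe (A_64_P009265) had 6.01, 5.95 and 6.01 in the vehicle arrays and 6.63, 6.39 and 6.62 in the treated arrays. The difference was 0.56 (SE 0.09), or 1.47-fold. The other probes, A_64_P025630 and A_44_P432358, differed by 0.68 (SE 0.09) and 0.67 (SE 0.18). The last of these matches another transcript of the gene and was less even, with 0.56, 0.56 and 0.05 in vehicle and 0.96, 0.94 and 1.29 in treated arrays.

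Ugt1a2, a further isoform of the locus, had 4.15, 4.04 and 4.01 in vehicle and 4.82, 4.58 and 4.81 in treated arrays on its brightest probe (A_44_P402641). The difference was 0.67 (SE 0.10), and 0.81 (SE 0.09) on the other probe. In each of these isoforms treated 2 was the lowest treated array on the brightest probe. Centred on their own means, Ugt1a1 and Ugt1a2 differed by a root mean square of 0.09 over the 6 arrays, and Ugt1a2 and Ugt1a6 by 0.07. Probe sequences were not used here, so whether these probes bind the shared exons was not examined, and the 6 UGT1A probes, at 0.56 to 0.81, are not taken as independent measurements.

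The other UGT1A gene with a probe had a lower treated mean. Ugt1a9 had -2.83, -3.13 and -3.18 in vehicle and -3.41, -3.41 and -3.26 in treated arrays, a log2 difference of -0.32 (SE 0.12, limma adjusted p = 0.22). It did not pass the test, at an unadjusted limma p of 0.036. Every treated array lay below every vehicle array, as in 16.8% of all tested genes. It was detected in each animal but dim, and 6 other UGT1A names in the list had no matched probe.

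Ugt2b1 conjugates testosterone, morphine and bisphenol A, and is a classic phenobarbital-inducible gene of rat liver. Together with Sult1a1 it had the largest difference of the set, so the 250 bases upstream of both are shown, with the AGTTCA half-site of Ugt2b1 in capitals (as TGAACT, 47 to 42 bases before the start). The Ugt2b1 region is chr14:21378632-21378881 on the plus strand and the Sult1a1 region is chr1:190706113-190706362 on the minus strand. None of the 6 motifs searched was found in the Sult1a1 window.
Ugt2b1: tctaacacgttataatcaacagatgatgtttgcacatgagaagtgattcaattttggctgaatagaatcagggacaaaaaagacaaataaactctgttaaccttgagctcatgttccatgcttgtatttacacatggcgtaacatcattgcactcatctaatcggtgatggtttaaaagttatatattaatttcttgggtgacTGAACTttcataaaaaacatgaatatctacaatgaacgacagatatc
Sult1a1: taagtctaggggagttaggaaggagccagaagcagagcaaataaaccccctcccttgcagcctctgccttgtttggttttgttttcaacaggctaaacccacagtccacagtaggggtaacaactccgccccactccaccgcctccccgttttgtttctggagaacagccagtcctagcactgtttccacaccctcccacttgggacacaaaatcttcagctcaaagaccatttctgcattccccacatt

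In vehicle cortex Ugt2b1 read -6.52, -7.15 and -7.74, none of them well above background. In treated cortex it read -3.84, -2.51 and -0.70, all well above background. The gene thus went from below detection in vehicle cortex to a measurable signal in each treated animal. With the vehicle arrays set to their lowest detectable signal, the treated mean was 10.01-fold higher. This is a bound on the group means under this processing and not on each array. The fitted log2 difference of 4.79 (SE 0.80) rests on vehicle values below background. It was 3.32 with dim values at the detection floor and 1.95 with normexp background correction. Within slide 1 it was 3.30, and without treated 3, the highest treated array, 3.96. Both still rest on vehicle values below background.

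The treated animals differed among themselves more in Ugt2b1 than in any other member, with treated 3 above treated 1 by 3.14. The tested genes with the nearest array profile, by root mean square difference of centred values over 6 arrays among 12110 genes, were those of the P450 genes Cyp2b2 (0.43), Cyp2b12 (0.51) and Cyp2b21 (0.64). Like Ugt2b1, Cyp2b12 and Cyp2b21 were detected on 0 vehicle arrays, so these distances rest in part on values below background. Cyp2b2, a gene that responds to CAR in liver, was detected on every array and had -2.02, -2.28 and -2.30 in vehicle and 0.46, 1.76 and 3.55 in treated arrays. It was picked for its likeness to Ugt2b1, so its order over the animals is a description.

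Liver transcripts also differed between the treated arrays. Of 29 liver markers 26 were tested, and 24 of these were higher in treated 3 than in treated 1, with a median excess of 2.11. In vehicle arrays 20 of the 26 were higher in vehicle 1 than in vehicle 3, with a median excess of 2.42, against 1.22 for the undetected values of Ugt2b1. The summed signal of the list, relative to the 75th percentile, was 131 to 166 in vehicle and 126 to 223 in treated arrays. Without Serpinc1, the brightest gene of the list, it was 42.2 to 71.7 in vehicle and 55.0 to 133 in treated arrays. The median log2 difference between groups was 0.62, and 24 of 26 were higher in the treated mean. No marker passed the adjusted limma test, and 2 were higher and 0 lower at an unadjusted p under 0.05, against 10.1% and 11.3% of all tested genes. Cps1, Tat and Cyp7a1, liver enzymes of urea, tyrosine and bile acid metabolism, were detected on 0 arrays. The part of liver RNA in the Ugt2b1 values was not tested. In treated 1, 12 of the 26 markers lay above the vehicle mean. A bulk sample cannot tell more cells of a type from more RNA per cell.

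**Figure D2:**
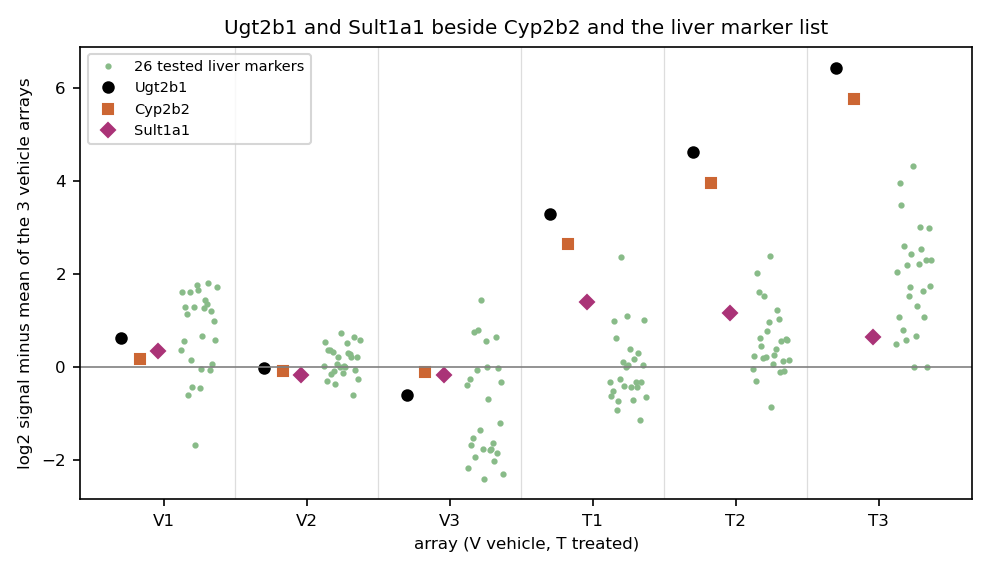
Log2 signal minus the mean of the 3 vehicle arrays (y axis) for Ugt2b1, Cyp2b2, Sult1a1 and each of the 26 tested liver markers (small green points) on each array (x axis, V vehicle, T treated). Ugt2b1, Cyp2b2 and Sult1a1 lie above their vehicle values in all 3 treated arrays, as do 2 of the 26 liver markers, and 24 of the 26 are higher in treated 3 than in treated 1, while the vehicle points of Ugt2b1 are not well above background.

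Ugt2b35, the remaining UGT2B member, was not separated between groups. It had 5.60, 4.94 and 5.06 in vehicle and 5.38, 5.91 and 6.10 in treated arrays, a log2 difference of 0.60 (SE 0.25). Vehicle 1 lay above treated 1, and within slide 1 the difference was 0.18. Its profile was close to that of the brighter Ugt2b15 probe, at a root mean square difference of 0.03 over the 6 arrays. The names Ugt2b15 and Ugt2b35 overlap in the RefSeq synonyms, and whether these probes bind each other's transcripts was not examined, so the probes are not taken as separate measurements.

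Both genes lie in the UGT2B cluster of chromosome 14, and their upstream sequences share a run of 31 bases. It is shown because the Ugt2b35 probe and the brighter Ugt2b15 probe had nearly the same profile. How often genes of this cluster share such a run was not examined, and its part in the profiles was not tested. It lies at chr14:21208350-21208380 for Ugt2b35, 91 to 61 bases before the start used for its upstream sequence, and at chr14:21122784-21122814 for Ugt2b15, 82 to 52 bases before the start, on the plus strand of both.
Shared run: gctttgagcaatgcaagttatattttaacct

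Ugt2b15, which also carries the older name Ugt2b17 and conjugates steroids, had 1.56, 0.90 and 0.96 in vehicle and 1.34, 1.90 and 2.11 in treated arrays. The log2 difference was 0.64 (SE 0.26, limma adjusted p = 0.24), and it did not pass the test. Its dimmer probe gave 1.35 (SE 0.57), with treated 3 above treated 1 by 2.12 and vehicle 1 above vehicle 3 by 1.09, where the brighter probe had 0.77 and 0.60. Ugt2b37 showed the same split between its probes, at 0.38 (SE 0.21) on the brighter and 1.83 (SE 0.68) on the dimmer. The dimmer probes of both genes thus varied between arrays of a group more than the brighter probes did. On both probes of each gene treated 3 was above treated 1 and vehicle 1 above vehicle 3, as in most liver markers. The part of liver RNA in these values was not tested. Of these probes only the dimmer one of Ugt2b37 had every treated array above every vehicle array, as did 11.5% of all tested probes.

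Of 15 other UGT2, UGT3 and UGT8 names, 8 had a probe and 4 were tested. None passed the adjusted test, against 0.00825% of all tested genes in each direction. At an unadjusted limma p under 0.05, 1 was higher and 0 lower, against 10.1% and 11.3% of all tested genes. The median difference of the 4 was 0.51 beside -0.01 over all tested genes. It was 0.19 with slide as a block, 0.92 with no filter on dim probes and 1.05 with the mean of all probes per gene. The 1 was Ugt2b7, a UGT2B enzyme, with -1.91, -0.27 and -0.13 in vehicle and 0.27, 0.40 and 0.61 in treated arrays (difference 1.20, SE 0.48, limma adjusted p = 0.23). Its groups did not overlap, but vehicle 1 lay far below the other vehicle arrays. Ugt2b, which was not tested, was well above background on 1 vehicle and 2 treated arrays. It had -7.80, -5.07 and -7.64 in vehicle and -5.43, -3.82 and -1.30 in treated arrays, again highest in treated 3.

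Sult1a1 sulfates phenols, catecholamines and many drug metabolites. Its brightest probe had 3.04, 2.53 and 2.53 in vehicle and 4.09, 3.86 and 3.35 in treated arrays. All treated arrays were above all vehicle arrays, by at least 0.31. The difference was 1.07 (SE 0.24), or 2.10-fold, and 1.29 (SE 0.23), or 2.44-fold, on the other probe. Within slide 1 it was 1.40.

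On the brightest Sult1a1 probe the order of the treated animals was the reverse of that in Ugt2b1, with treated 3 below treated 1 by 0.75 on the log2 scale. On the other probe treated 1 and treated 2 were alike, at 3.19 each, and treated 3 was lowest at 2.56. Treated 3 was the array with the highest summed liver marker signal. Without vehicle 1 and treated 3, the arrays with the most such signal in each group, the difference was 1.45. This alternative was chosen after seeing the data. Vehicle 1 (3.04) was also the highest vehicle array of Sult1a1, and treated 3 (3.35) its lowest treated array. Leaving them out therefore had to raise the difference. The nearest array profiles among tested genes were those of the kinase gene Pim3 (root mean square difference 0.14), the sodium bicarbonate cotransporter gene Slc4a7 (0.19) and the actin-capping protein gene Capg (0.20).

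Other sulfotransferases showed no common direction. Of 16 listed names, 14 had a probe and 8 were tested. None passed the adjusted limma test, and 1 was higher and 1 lower at an unadjusted p under 0.05, against 10.1% and 11.3% of all tested genes. The median log2 difference was 0.23, with 0.51 in the fit blocked by slide and 0.04 without treated 1, where 1 of the 8 was called. The higher was Tpst2, a tyrosine sulfotransferase of the Golgi (0.28, SE 0.11), and the lower was Sult1c2a. Sult1c2a, a cytosolic sulfotransferase, had 7.02, 7.41 and 7.47 in vehicle and 6.75, 6.92 and 6.85 in treated arrays. Its difference was -0.46 (SE 0.14, limma adjusted p = 0.17), in the opposite direction to Sult1a1. Every treated array lay below every vehicle array, as in 16.8% of all tested genes. Sult1b1 (0.65, SE 0.50) and Sult1c3 (0.48, SE 0.57) overlapped between groups. Sult1e1 and Sult2a2, which sulfate estrogens and hydroxysteroids, were detected on 0 arrays.

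The cofactor genes Ugdh and Papss2 had the smallest differences among the members, by brightest probe. Ugdh read 2.78, 2.60 and 2.54 in vehicle animals and 3.05, 3.03 and 3.17 in treated animals, with a difference of 0.44 (SE 0.10), or 1.36-fold. The treated arrays lay within 0.14 of each other, all above vehicle 1, and the difference within slide 1 was 0.41. The window upstream of Ugdh held GCGTG and TGACNNNGC overlapping at 207 to 199 bases before the start used for that window, on opposite strands. These letters were found in 25.9% and 10.1% of all upstream sequences, and binding was not measured.

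Papss2 had 1.66, 1.56 and 1.86 in vehicle and 2.02, 2.27 and 2.22 in treated arrays on its brightest probe. The difference was 0.48 (SE 0.12), or 1.39-fold, and 0.33 within slide 1. Its other 3 probes gave 0.37 (SE 0.10), 0.44 (SE 0.11) and 0.37 (SE 0.16). Groups overlapped on the dimmest of the 4, by 0.02 on the log2 scale.

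**Figure D3:**
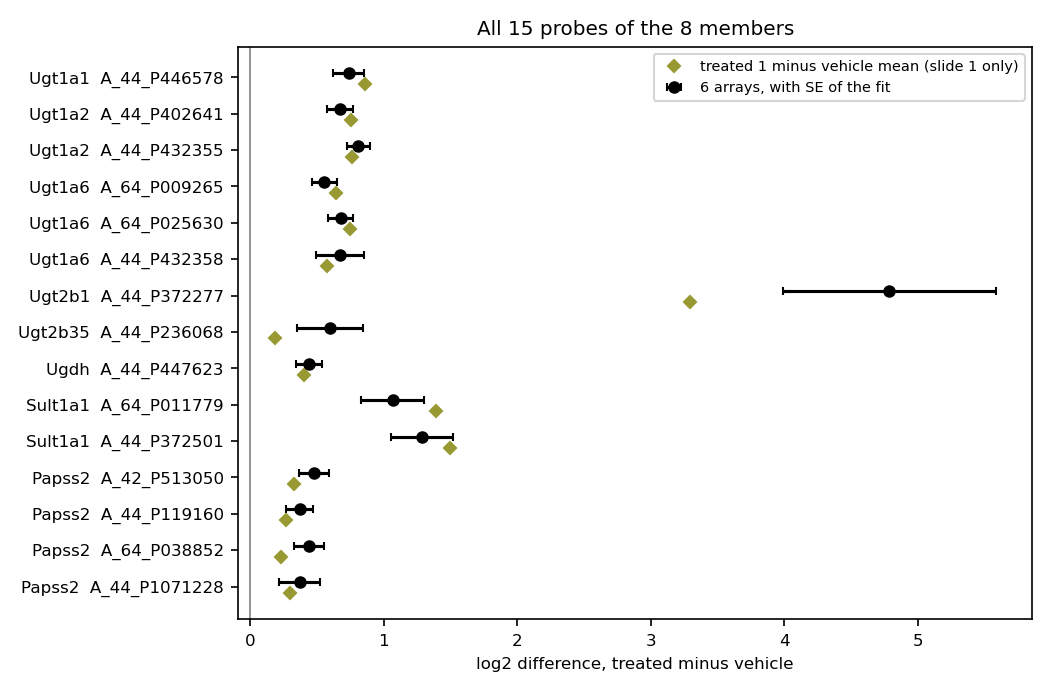
Log2 difference of treated minus vehicle (x axis) for each of the 15 probes of the 8 members (y axis). Black points use 6 arrays with the SE of the limma fit, and diamonds are treated 1 minus the vehicle mean, within slide 1. Probes of a gene lie close together, and Ugt2b35 drops to 0.18 within slide 1. Ugt2b1 lies apart at 4.79 and 3.30, both resting on vehicle values below background.

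Around these cofactor enzymes, a list of 17 genes for UDP-glucuronate, PAPS and sulfate supply had 14 tested members. None passed the adjusted limma test, while 6 were higher and 0 lower at an unadjusted p under 0.05, against 10.1% and 11.3% of all tested genes. The list median was 0.09, with 0.21 without treated 1 and -0.01, a change of sign, in the fit blocked by slide. Calls in the list numbered 1 with normexp and 4 without treated 1. Sqor, which oxidises sulfide in mitochondria, had 1.06, 0.62 and 1.09 in vehicle and 1.78, 1.95 and 1.89 in treated arrays (difference 0.95, SE 0.14, limma adjusted p = 0.089). Slc26a1, the basolateral sulfate exchanger of the proximal tubule, had 6.37, 6.10 and 6.02 in vehicle and 6.52, 6.97 and 7.37 in treated arrays (0.79, SE 0.23, limma adjusted p = 0.16). In Sqor the treated arrays were alike, whereas in Slc26a1 treated 1 was close to vehicle 1. Slc35d2, a nucleotide sugar transporter, differed by 0.49 (SE 0.20), and Bpnt1, which breaks down the spent sulfate donor, by 0.27 (SE 0.11).

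Ugp2 and Slc35d1, which act next to Ugdh, were also among the 6, and are named after their values were seen. Ugp2, which makes UDP-glucose for Ugdh, differed by 0.41 (SE 0.11, limma adjusted p = 0.15). Slc35d1, which carries UDP-glucuronate into the endoplasmic reticulum, had -1.14, -1.27 and -1.24 in vehicle and -0.89, -0.76 and -0.62 in treated arrays (0.46, SE 0.09, limma adjusted p = 0.11). Its profile differed from that of Ugdh by a root mean square of 0.06. Groups did not overlap in either gene. Other genes near this step had a lower treated mean. Pgm1 of the same list differed by -0.02 (SE 0.09) and Pgm2 by -0.13 (SE 0.08). Uxs1, in the list of genes that use glucuronate, differed by -0.22 (SE 0.07). In Pgm2 and Uxs1 every treated array lay below every vehicle array, as in 16.8% of all tested genes.

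Other genes that use or break down glucuronate had a median difference of 0.08 over 9 tested members, and 0 passed the adjusted limma test. At an unadjusted p under 0.05, 0 were higher and 1, the UDP-xylose synthase gene Uxs1, was lower (-0.22, SE 0.07), against 10.1% and 11.3% of all tested genes. Rgn, which forms a lactone on the route to ascorbate, differed by 1.27 (SE 0.59), Gulo, the last enzyme of that route, by 0.45 (SE 0.40), and Cryl1, a gulonate dehydrogenase, by 0.26 (SE 0.14). Rgn overlapped between groups and ran from 1.62 in vehicle 1 to 3.65 in vehicle 3. The median over the list turned to -0.09 in the fit blocked by slide and to -0.02 without treated 2, and so changed sign.

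Enzymes that remove the conjugates had a median of 0.06 over 5 tested members, and 0 passed the adjusted limma test, with 1 higher and 0 lower at an unadjusted p under 0.05, against 10.1% and 11.3% of all tested genes. Sts, the steroid sulfatase, differed by 0.35 (SE 0.15), Gusb, the lysosomal beta-glucuronidase, by 0.23 (SE 0.08) and Arsa, arylsulfatase A, by 0.06 (SE 0.17). The median was -0.06 without treated 2 and 0.24 without treated 1.

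Among the 7 ABC pumps that export conjugates, 0 passed the adjusted limma test, and 2 were higher and 0 lower at an unadjusted p under 0.05, against 10.1% and 11.3% of all tested genes. The median was 0.05, with 0.02 without vehicle 1 and 0.14 without vehicle 3, and 1 pump was called without treated 1. Abcc4, an apical pump of the proximal tubule, had 2.41, 2.34 and 2.42 in vehicle and 2.84, 2.93 and 3.26 in treated arrays (0.62, SE 0.12, limma adjusted p = 0.11). Abcc1 differed by 0.39 (SE 0.09) and Abcc5 by -0.17 (SE 0.11). Abcc4 and Abcc1 did not overlap between groups, whereas Abcc2, the apical pump best known for glucuronides, had a difference of -0.06 (SE 0.17).

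**Figure D4:**
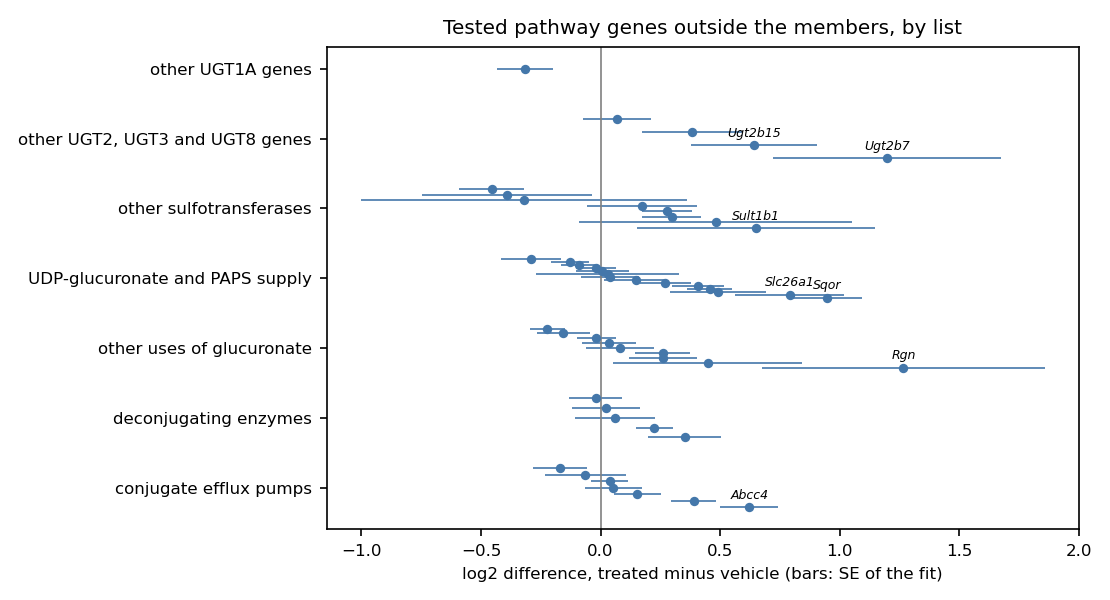
Log2 difference of treated minus vehicle (x axis, bars are the SE of the limma fit) for each tested gene of the 7 pathway lists outside the members, grouped by list (y axis; marker lists are not drawn). None of these genes passed the adjusted limma test, most points lie within 0.5 of 0, and the highest are Rgn (1.27), Ugt2b7 (1.20) and Sqor (0.95).

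Markers of other cells also differed between arrays. Of 6 tested adipocyte markers 5 were higher in treated cortex (median 0.50), with summed signals of 203 to 231 in vehicle and 203 to 332 in treated arrays. Nearly all of that sum was Pck1, a gluconeogenic gene that proximal tubule cells also express. Without it the sums were 1.80 to 2.45 in vehicle and 3.02 to 3.24 in treated arrays. Cidec (1.86, SE 0.61), Ucp1 (0.58, SE 0.15) and Lpl (0.42, SE 0.12) lay apart between groups. Adipoq (-0.08, SE 0.22), Fabp4 (0.76, SE 1.04) and Pck1 (0.34, SE 0.20) overlapped. Of 5 tested leukocyte markers 0 were higher (median -0.36), with sums of 118 to 126 in vehicle and 84.0 to 126 in treated arrays. No marker of these lists passed the adjusted limma test, while 3 and 0 were higher and 0 and 1 lower at an unadjusted p under 0.05, against 10.1% and 11.3% of all tested genes. The adipocyte hormone gene Lep was detected on 0 arrays, and the T cell gene Cd3e on 2 vehicle and 0 treated arrays. Their part in the members' values was not tested.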

How the data were processed

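Total RNA of renal cortex was labelled with Cy3, per the labels' protocols, and read on 1-colour Agilent rat arrays. The intensity values are processed signals on a linear scale, background-subtracted by Agilent Feature Extraction 10.7.1.1, per the file headers. The submitters' processing notes name version 10.7. The authors also deposited a series table of linear intensity values, close to the processed signal over the array's 75th percentile (log2 correlation above 0.99), with medians of 0.11, 0.108, 0.109, 0.109, 0.105 and 0.105. Its scaling is not given in the sources used here.

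Values were log2 processed signals minus the 75th percentile. Probes with an outlier flag (11) were left out, 0 were saturated, and a probe was tested if well above background on all 3 arrays of a group. Probe accessions were matched without versions to RefSeq (GRCr8): 28206 probes had 1 symbol, 33331 none and 0 several. The brightest tested probe stood for a gene. The comparison of groups used limma (version 3.58.1, R 4.3.3, two-sided, Benjamini-Hochberg over all tested probes, threshold 0.05), and the fit was tested on simulated data. SE are limma's moderated SE. The number of arrays limits the precision. For a gene undetected in vehicle, the bound sets the treated mean against, per array, the lowest signal well above background or its own value if higher. Upstream sequences are from RefSeq (GRCr8).

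Members and lists were chosen with earlier results of these data known. Named genes were the members, the 3 tested genes per list with the largest difference, and the 3 nearest profiles of members varying by a root mean square over 0.5. Others named were chosen after their values were seen. Alternatives covered background correction, run on spot medians because the files used here hold no spot means, normalization, dim probes, slide, replicate number, variance model, probe choice, the series table and each array left out. Leaving out vehicle 1 and treated 3 together was added after seeing the data.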

Additional observations from a re-analysis of the deposited data

How the results depend on the processing

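All 8 member differences stayed above 0 in every alternative that gave a value. Ugt2b1 has none when probes must be detected on every array. The Ugt2b1 difference of 4.79 moved to 1.95 with normexp, 3.32 with dim values at the floor and 3.30 with slide as a fixed block. Slide as a fixed block also moved Ugt2b35 to 0.18 and Papss2 to 0.33, normexp moved Ugt1a6 to 0.45 and Ugdh to 0.32, and leaving out vehicle 1 and treated 3 moved Sult1a1 to 1.45. Calls over all probes, 1 higher and 2 lower, were 97 and 40 with normexp, 109 and 47 with trend and robust variance, 0 and 1 without a filter, 0 and 1 with slide as a fixed block, and 0 and 0 with probes detected on every array, with dim values at the floor and without vehicle 1 and treated 3. Leaving out 1 array gave 0 to 1469 higher and 0 to 2838 lower, the most without treated 1, where group and slide cannot be told apart. In the 6 alternatives with 0 limma calls, 3923 to 8440 probes had an unadjusted p under 0.05. With the replicate block, calls were 0 and 0. Same-numbered arrays did not deviate together (correlations of -0.21, 0.01 and -0.16 over tested probes). With 3 arrays per group, these values cannot settle whether the numbers pair the animals.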
